A study of Mus musculus with 71 samples.

Results

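A set of 10 genes of the circadian clock and its output was followed in differentiated mouse adipocytes over 48 hrs of rosiglitazone (RSG). They were Noct, Per1, Per2, Per3, Cry1, Arntl, Clock, Dbp, Nr1d1 and Nr1d2, chosen by name with earlier results of these data known. Counts of these genes beside the share of all probe sets are therefore descriptions. Every probe set annotated to exactly 1 gene, that gene being 1 of these, was taken. That gave 16 probe sets of the 20380 with a single gene, for 10 of 12393 genes. Where a gene had several probe sets, the one with the highest mean log2 signal over all 71 arrays was its leading probe set, and the others are given beside it. A probe set shared by Noct and other genes was left out by this rule.

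RSG is a thiazolidinedione drug and a ligand of the nuclear receptor PPARγ, the master regulator of fat cell formation. 3T3-L1 is a mouse embryo fibroblast line committed to the fat lineage, and C3H/10T1/2 is a mouse embryo line that can become several mesenchymal cell types. Both lines were differentiated in culture before the experiment, 3T3-L1 with insulin, 3-isobutyl-1-methylxanthine, dexamethasone and RSG, and C3H/10T1/2 with insulin and RSG, so the control cells had met RSG too. This earlier exposure was not alike. By the study's methods 3T3-L1 had RSG only in the first phase of differentiation, followed by days without it. C3H/10T1/2 had it throughout differentiation and at a far higher concentration. After 24 hrs in a wash-out medium with bovine serum albumin, the adipocytes received RSG at 1 μM or the solvent DMSO in that medium and were harvested at 6 times: 1, 2, 4 and 7 hrs, then 24 hrs and 48 hrs. Each of the 24 groups held 3 arrays labelled as biological replicates, apart from 3T3-L1 with DMSO at 2 hrs, which held 2 (replicates 2 and 3). By the study's methods the replicates of a group were differentiated in separate batches and each pooled wells of a plate, but whether a replicate number marks the same batch in every group is not given in the sources used here. Cells harvested at 0 hrs were not analysed here.

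Signals are MAS 5.0 intensities on a linear scale, set to 1 common target on every array, and the presence level, above which a gene counted as expressed, lay at the upper end of the negative controls. For 3T3-L1 arrays the median ran from 50.2 to 64.2 with 67.78 to 73.92% of probe sets at the presence level, and for C3H/10T1/2 arrays from 38.2 to 46.9 with 62.08 to 67.69%. The adipocyte markers Adipoq, Lpl and Scd1 were high on every array, where Adipoq read 5669.8 to 9356.4 (3T3-L1) and 4965.8 to 7729.4 (C3H/10T1/2). Macrophage, myocyte, chondrocyte and osteoblast markers were lower than these but not all absent. Of 6 macrophage probe sets that of Ptprc stayed at or below 22.7, while those of Csf1r and Cd68 were at the presence level on all 71 arrays, with Csf1r at up to 201.3 (3T3-L1) and Cd68 at up to 367 (C3H/10T1/2). The osteoblast marker Ibsp stayed at or below 26.7, while Sp7 was at the presence level on all arrays, at up to 165.6 (3T3-L1) and 77.4 (C3H/10T1/2). The preadipocyte marker Dlk1 lay between 1544.6 and 4372.2 in 3T3-L1 but between 15.9 and 51.3 in C3H/10T1/2. Fibroblast collagens were high in both lines. The brightest Col1a2 probe set had medians of 6874.4 (3T3-L1) and 2976.7 (C3H/10T1/2), and that of Col3a1 3932.3 and 4435.4. In 3T3-L1 the former, at 4800.9 to 9466.2, overlapped Adipoq. RNA came from whole cultures, so fewer cells of a kind and less RNA per cell cannot be told apart. The number of arrays limits the precision.

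The mammalian clock is a feedback loop of transcription. CLOCK and ARNTL (BMAL1) bind E-boxes and turn on the Per and Cry genes, whose proteins repress CLOCK and ARNTL. The same pair drives Nr1d1 and Nr1d2, which encode the REV-ERB repressors of Arntl, and Dbp, which encodes an activator at D-boxes, sites found in Per genes among others. Noct encodes nocturnin, a clock-controlled protein related to the deadenylases that shorten mRNA tails, and mice without it are known to resist fat gain on a rich diet. Fat tissue and cultured fat cells have such a clock of their own.

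The DNA before the starts of the 3 genes that changed with RSG is shown so that its sites for these factors can be seen. Stretches of 250 bases before each start in the RefSeq promoter table (GRCm38.p6) were searched, and of them the bases outside the gene model are printed, 5′ to 3′ on the strand of the gene, with D-boxes in capitals. Noct lies at chr3:51224447-51251654, and its printed stretch at chr3:51224197-51224446, plus strand. Dbp lies at chr7:45705100-45710203, and its printed stretch at chr7:45704997-45705099, plus strand. Per3 lies at chr4:150997018-151044707, and its printed stretch at chr4:151044708-151044915, minus strand.
Noct: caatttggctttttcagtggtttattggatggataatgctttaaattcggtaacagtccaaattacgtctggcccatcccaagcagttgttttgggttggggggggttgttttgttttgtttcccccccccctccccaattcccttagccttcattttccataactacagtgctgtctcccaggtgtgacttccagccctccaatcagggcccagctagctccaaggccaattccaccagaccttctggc
Dbp: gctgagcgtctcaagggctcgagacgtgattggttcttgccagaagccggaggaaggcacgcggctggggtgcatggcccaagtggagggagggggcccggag
Per3: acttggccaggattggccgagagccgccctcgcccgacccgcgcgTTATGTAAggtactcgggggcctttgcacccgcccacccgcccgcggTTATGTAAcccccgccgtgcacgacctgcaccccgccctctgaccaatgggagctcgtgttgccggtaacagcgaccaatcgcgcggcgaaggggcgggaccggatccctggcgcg
Searches on both strands covered 6 patterns: E-box CACGTG, the variant CACGTT, D-box TTATGTAA, the core site AGGTCA of ROR and REV-ERB, the cAMP element TGACGTCA, and a direct repeat of AGGTCA spaced by 1 base, the form that PPARγ binds, which contains the core site. Per3 held 2 D-boxes, 205 and 158 bases before the start in that table, and a D-box was present in 0.819% of 32851 promoter stretches of this length. The letters of the 6 patterns were not in the Noct and Dbp stretches. Among 13 promoter stretches of 9 of the genes, E-boxes were in 2 (Per1 and Cry1; 6.02% of all promoters), the variant in 2 (Cry1 and Nr1d1; 3.85%), and the core site in 3 (Clock, Nr1d2 and Per1; 14%). The direct repeat was in 0 of the 13 and in 0.0335% of all promoters, and the cAMP element in 0 and 1.55%. Per2 had no entry.

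RSG against DMSO was compared at each time within each cell type, on log2 signals. At 1 hrs no clock probe set was called (adjusted p under 0.05 by limma, over all probe sets tested) among 16 tested in 3T3-L1 or 14 in C3H/10T1/2, where 0.0666% and 0.0434% of all probe sets were. At an unadjusted p under 0.05 limma gave 1 and 2, and the methods' test of the study gave 1 and 0. At 2 hrs 1 was called in each cell type, against 0.172% and 0.229% of all probe sets. At 4 hrs 3 were called in each, against 0.716% and 0.763%. At 7 hrs 4 were called in 3T3-L1 and 2 in C3H/10T1/2, against 2.04% and 2.85%, and with the replicate number as a block C3H/10T1/2 had 4. At 24 hrs the counts were 3 and 1, against 11.8% and 7.72%. Noct alone was called in each cell type after 48 hrs, against 14.3% and 5.41%. The called probe sets belonged to Noct, higher with RSG, and to Dbp and Per3, lower with RSG. The median log2 difference over the clock probe sets lay between -0.22 and 0.14 at the 12 comparisons, and that over all probe sets tested between -0.07 and 0.04.

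**Figure D1:**
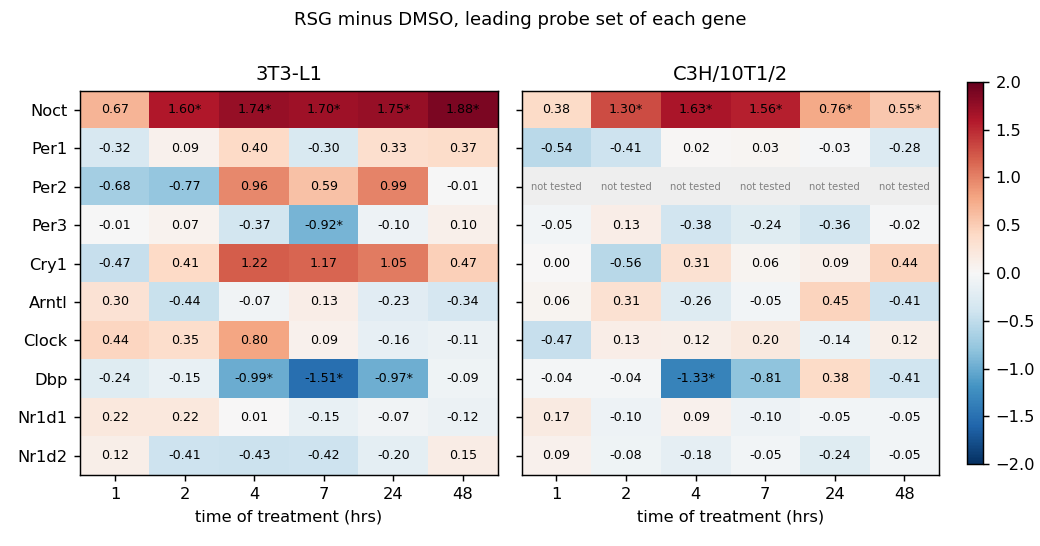
Log2 difference of RSG minus DMSO for the leading probe set of each of the 10 genes (rows) at each time (columns, hrs), in 3T3-L1 (left) and C3H/10T1/2 (right). Red is higher and blue lower with RSG, and an asterisk marks an adjusted p under 0.05 (limma, without a replicate block). Noct is marked from 2 to 48 hrs in both, Dbp at 4, 7 and 24 hrs in 3T3-L1 and at 4 hrs in C3H/10T1/2, and Per3 at 7 hrs in 3T3-L1, while Per2 was not tested in C3H/10T1/2.

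Noct rose with RSG in both adipocytes from 2 hrs on. It had 1 probe set, which was at the presence level on all 71 arrays and ranged from 68.7 to 903.4. In 3T3-L1 at 1 hrs the signals were 228.9, 142.9 and 153.0 with DMSO and 288.3, 259.8 and 270.8 with RSG. These groups did not overlap, yet the log2 difference of 0.67 ± 0.19 (SE, n = 3 and 3) had an adjusted p of 0.62, with a 95% interval of 0.29 to 1.05. At 2 hrs the signals were 142.7 and 108.3 with DMSO and 415.6, 325.2 and 397.4 with RSG. The difference was 1.60 ± 0.21 on the log2 scale (n = 3 and 2; adjusted p = 7.92e-05).

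At 4 hrs in 3T3-L1 the DMSO arrays read 165.3, 161.3 and 197.6 and the RSG arrays 588.4, 612.2 and 544.8. At 7 hrs they read 273.5, 162.3 and 150.2 with DMSO and 574.4, 630.5 and 626.7 with RSG. RSG lay far above DMSO at both times, by 1.74 ± 0.19 at 4 hrs and 1.70 ± 0.19 at 7 hrs (log2, SE, n = 3 and 3). At 24 hrs the signals were 351.8, 224.9 and 228.5 with DMSO and 849.8, 903.4 and 887.7 with RSG. At 48 hrs they were 203.8, 233.9 and 267.3 with DMSO and 862.5, 859.5 and 859.8 with RSG. The 24 and 48 hrs RSG groups were the highest Noct levels of the series and overlapped each other, and the differences from DMSO were 1.75 ± 0.19 and 1.88 ± 0.19 (adjusted p = 1.04e-08 at 48 hrs). With 1 array left out at a time, all of the 2 to 48 hrs differences in 3T3-L1 stayed called, with values of 1.40 to 1.98.

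In C3H/10T1/2 Noct at 1 hrs read 387.3, 403.9 and 481.9 with DMSO and 399.1, 633.3 and 652.1 with RSG. The groups overlapped, and the difference of 0.38 ± 0.16 (SE, n = 3 and 3) had an adjusted p of 1.00, with an interval of 0.06 to 0.69. At 2 hrs the signals were 142.0, 129.8 and 167.8 with DMSO and 373.8, 351.1 and 351.1 with RSG. At 4 hrs they were 84.0, 68.7 and 80.4 with DMSO and 272.7, 206.0 and 244.6 with RSG. At 7 hrs they were 92.0, 78.8 and 81.0 with DMSO and 280.5, 258.9 and 206.2 with RSG. Every RSG array was above every DMSO array at these times, by 1.30 ± 0.16, 1.63 ± 0.16 and 1.56 ± 0.16 on the log2 scale. At 24 hrs Noct read 339.0, 334.1 and 282.5 with DMSO and 488.3, 597.5 and 530.8 with RSG, and at 48 hrs 299.6, 351.9 and 375.9 with DMSO and 496.2, 528.6 and 470.1 with RSG. The gap had narrowed to 0.76 ± 0.16 at 24 hrs (adjusted p = 0.00193) and 0.55 ± 0.16 at 48 hrs (adjusted p = 0.0319). The 48 hrs call was lost when any of 5 of its 6 arrays was left out, DMSO replicate 3 being the exception, at adjusted p up to 0.171, and when the 2 groups were fitted alone (adjusted p = 0.0718).

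**Figure D2:**
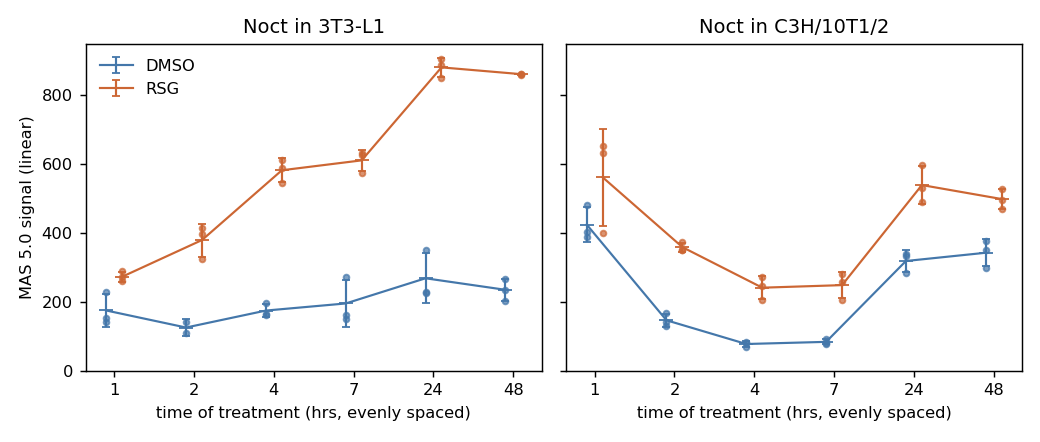
Noct signal (MAS 5.0, linear) against time of treatment (hrs, evenly spaced) in 3T3-L1 (left) and C3H/10T1/2 (right). Points are single arrays and lines join group means with SD bars, blue for DMSO and orange for RSG. RSG arrays reach 849.8 to 903.4 at 24 hrs in 3T3-L1, whereas in C3H/10T1/2 both treatments fall to a low at 4 and 7 hrs and come back at 24 hrs.

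The Noct level also depended on time without the drug. Under DMSO in C3H/10T1/2 the mean fell from 424 at 1 hrs to 147 at 2 hrs, 77.7 at 4 hrs and 83.9 at 7 hrs, and was 319 at 24 hrs and 342 at 48 hrs (n = 3 each). Against 1 hrs the log2 change was -1.54 ± 0.16 at 2 hrs, -2.45 ± 0.16 at 4 hrs and -2.33 ± 0.16 at 7 hrs (adjusted p = 3.66e-12 at 4 hrs). The neighbours 4 and 7 hrs overlapped in signal, and so did 24 and 48 hrs. Under RSG in the same cells the level fell and came back as well, with means of 562, 359, 241, 249, 539 and 498, and the changes against 1 hrs were -1.19 ± 0.16 at 4 hrs and -1.15 ± 0.16 at 7 hrs. Means under DMSO in 3T3-L1 were 175, 126, 175, 195, 268 and 235 from 1 to 48 hrs. The 2 hrs arrays lay below those of 1 and 4 hrs, and from 4 hrs on each group overlapped the next in time. The F-test over the 6 times called Noct in 3T3-L1 (F = 6.84, adjusted p = 0.0158), a call that was lost without DMSO 2 hrs replicate 3 (adjusted p = 0.121) or DMSO 24 hrs replicate 1 (adjusted p = 0.0544). The C3H/10T1/2 cells gave F = 95.3 (adjusted p = 4.02e-14).

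Dbp fell with RSG at 4, 7 and 24 hrs in 3T3-L1 and at 4 hrs in C3H/10T1/2 by both of its probe sets. At 7 hrs in C3H/10T1/2 it fell by 1 of the 2 probe sets, or by both with the replicate number as a block. Both were at the presence level on all arrays. In 3T3-L1 at 4 hrs the leading probe set read 252.6, 331.4 and 258.8 with DMSO and 125.3, 153.4 and 143.9 with RSG. At 7 hrs it read 247.9, 341.0 and 307.0 with DMSO and 128.4, 95.0 and 92.1 with RSG. At 24 hrs it read 166.9, 155.9 and 224.8 with DMSO and 80.5, 83.5 and 115.8 with RSG. The RSG arrays were all lower than the DMSO arrays at the 3 times, by -0.99 ± 0.21, -1.51 ± 0.21 and -0.97 ± 0.21 on the log2 scale (SE, n = 3 and 3), with adjusted p of 0.0136, 4.90e-05 and 0.00216. At 48 hrs the groups overlapped, at 96.0 to 165.7 with DMSO and 100.1 to 141.0 with RSG.

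The second Dbp probe set gave -0.66 ± 0.14, -1.22 ± 0.14 and -0.41 ± 0.14 at 4, 7 and 24 hrs in 3T3-L1. At 7 hrs both probe sets stayed called whichever array was left out. At 4 hrs the leading probe set lost its call without RSG replicate 1 (adjusted p = 0.109) or DMSO replicate 2 (adjusted p = 0.134), and the second without RSG replicate 3 (0.0559) or DMSO replicate 1 (0.103). At 24 hrs the second probe set lost it without RSG replicate 1 or 2 or DMSO replicate 1 or 2, at adjusted p up to 0.249, while the leading one kept it. The call of the second probe set at 24 hrs was also lost without the trend (adjusted p = 0.0512), without the filter (0.0513) and after quantile normalization (0.128). When the 2 groups were fitted alone, the second probe set lost its calls at 4 hrs (0.119) and 24 hrs (0.198), and the leading one kept its calls.

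In C3H/10T1/2 at 4 hrs the leading Dbp probe set read 129.3, 166.8 and 153.9 with DMSO and 45.2, 75.3 and 60.8 with RSG. At 7 hrs it read 199.2, 295.3 and 198.6 with DMSO and 86.7, 156.4 and 159.5 with RSG. RSG arrays were below DMSO arrays at both times, by -1.33 ± 0.23 (adjusted p = 0.00171) and -0.81 ± 0.23 (adjusted p = 0.0506) on the log2 scale. The second probe set gave -0.90 ± 0.18 at 4 hrs, lost without RSG replicate 2 (adjusted p = 0.0663) or with the 2 groups fitted alone (0.0873), and -0.64 ± 0.18 at 7 hrs (adjusted p = 0.0489), lost when any 1 of the 6 arrays was left out, at adjusted p of 0.0782 to 0.179, and in the settings without the trend, without the filter, with the floor, after quantile normalization and with the 2 groups alone, at 0.0538 to 0.0822. With the replicate number as a block 4 clock probe sets were called at 7 hrs in place of 2, the added ones being the leading Dbp probe set (adjusted p = 0.00844) and the second Clock probe set (0.61, adjusted p = 0.0355). At 24 hrs the groups overlapped, at 38.0 to 71.3 with DMSO and 65.7 to 77.4 with RSG.

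**Figure D3:**
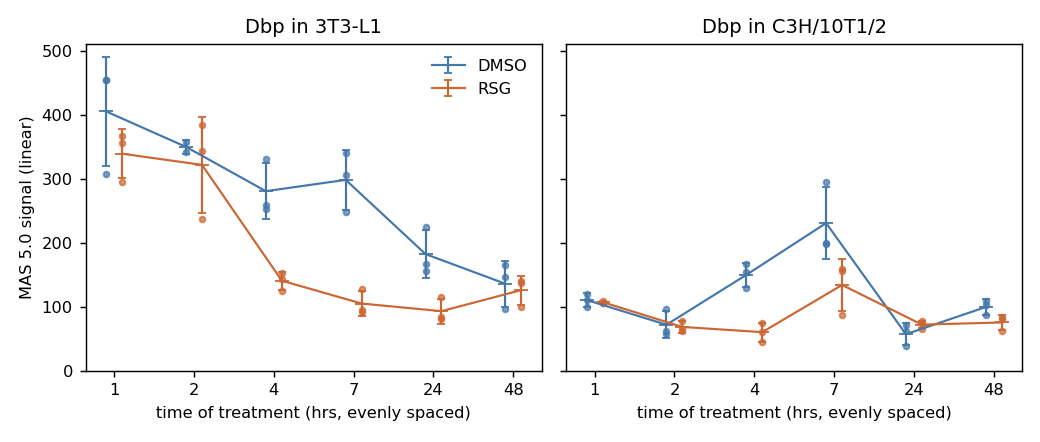
Signal of the leading Dbp probe set (MAS 5.0, linear) against time of treatment (hrs, evenly spaced) in 3T3-L1 (left) and C3H/10T1/2 (right). Points are single arrays and lines join group means with SD bars, blue for DMSO and orange for RSG. In 3T3-L1 RSG arrays are below DMSO arrays at 4, 7 and 24 hrs, and in C3H/10T1/2 the DMSO mean peaks at 231 at 7 hrs.

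The Dbp level under DMSO moved with time in both cell types. In 3T3-L1 its mean went from 406 at 1 hrs to 350, 281, 299, 183 and 136 at 48 hrs, and the changes against 1 hrs were called at 24 hrs (-1.15 ± 0.21) and 48 hrs (-1.59 ± 0.21). The C3H/10T1/2 means were 111, 72.0, 150, 231, 57.2 and 99.7, higher than at 1 hrs by 1.04 ± 0.23 at 7 hrs and lower at 24 hrs (log2 change of -0.997 ± 0.232). The second probe set was also highest at 7 hrs in C3H/10T1/2 (153.3 to 188.2) and lowest at 24 hrs (63.8 to 79.2), where it overlapped 2 hrs (66.0 to 82.1).

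Per3, a Period family repressor, fell with RSG in 3T3-L1 at 7 hrs. There its leading probe set read 113.0, 187.8 and 135.0 with DMSO and 64.8, 87.9 and 73.7 with RSG, and the groups did not overlap. The log2 difference was -0.92 ± 0.19 (SE, n = 3 and 3; adjusted p = 0.00382), and the call was lost without DMSO replicate 2 (adjusted p = 0.0727) and with the 2 groups fitted alone (0.0918). At 4 hrs the arrays read 116.2 to 131.3 with DMSO and 81.6 to 112.5 with RSG, a difference of -0.37 ± 0.19 that was not called. A second Per3 probe set gave -0.58 ± 0.22 at 7 hrs in 3T3-L1 (adjusted p = 0.222) and -0.62 ± 0.25 in C3H/10T1/2 (adjusted p = 0.226), with no overlap of the groups in either. The third Per3 probe set was near the presence level in 3T3-L1 at 7 hrs, with means of 23.0 (DMSO) and 22.7 (RSG), and gave 0.02 ± 0.36 (adjusted p = 0.994). The leading probe set in C3H/10T1/2 at 7 hrs read 80.5 to 112.7 with DMSO and 68.6 to 103.5 with RSG, which overlapped.

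The other repressors of the loop gave no called RSG difference in either cell type. Per1 ranged from 29.4 to 126.4 over all arrays, and its log2 differences lay between -0.54 and 0.40. Per2 and Cry1 were near the presence level, which Per2 reached on 31 of 71 arrays with its leading probe set and Cry1 on 40 of 71. For C3H/10T1/2 the leading Per2 probe set and the third of Per3 were not tested, since all of their group means were under the presence level. In 3T3-L1 at 4 hrs Cry1 read 6.5, 7.4 and 10.8 with DMSO, under the presence level on all 3 arrays, and 16.9, 18.1 and 21.4 with RSG.

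The activators Arntl and Clock gave no called RSG difference without the replicate block. With the block, the second Clock probe set was called higher at 7 hrs in C3H/10T1/2 (0.61 on the log2 scale, adjusted p = 0.0355, against 0.0570 without). Arntl ranged from 36.3 to 117.6 over all arrays. Clock at 4 hrs in 3T3-L1 read 30.3, 59.5 and 34.2 with DMSO and 65.6, 83.1 and 59.1 with RSG, which overlapped, and its difference of 0.80 ± 0.28 had an interval of 0.22 to 1.37 (adjusted p = 0.369). The second Clock probe set gave 0.64 ± 0.25 there (adjusted p = 0.482).

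The REV-ERB genes Nr1d1 and Nr1d2 were called over time in C3H/10T1/2 and in no comparison of RSG with DMSO. Over the 12 comparisons the log2 difference of Nr1d1 lay between -0.15 and 0.22 and that of the leading Nr1d2 probe set between -0.43 and 0.15. At 4 hrs in 3T3-L1 Nr1d2 read 163.4, 210.9 and 199.4 with DMSO and 148.4, 142.1 and 134.0 with RSG, which did not overlap, with an interval of -0.84 to -0.02 (adjusted p = 0.679). Under DMSO in C3H/10T1/2 Nr1d2 read 236.0, 247.4 and 181.6 at 1 hrs and 363.6, 401.8 and 353.5 at 2 hrs. By 24 hrs it read 174.9, 237.3 and 220.3. Nr1d1 there read 124.5 to 128.2 at 1 hrs, 171.8 to 187.2 at 2 hrs and 75.6 to 117.3 at 24 hrs. Both were at their highest mean at 2 hrs. For these cells under DMSO limma called 0 of 14 clock probe sets higher at 2 than at 1 hrs, against 0.341% of all. At an unadjusted p under 0.05 it gave 4.

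**Figure D4:**
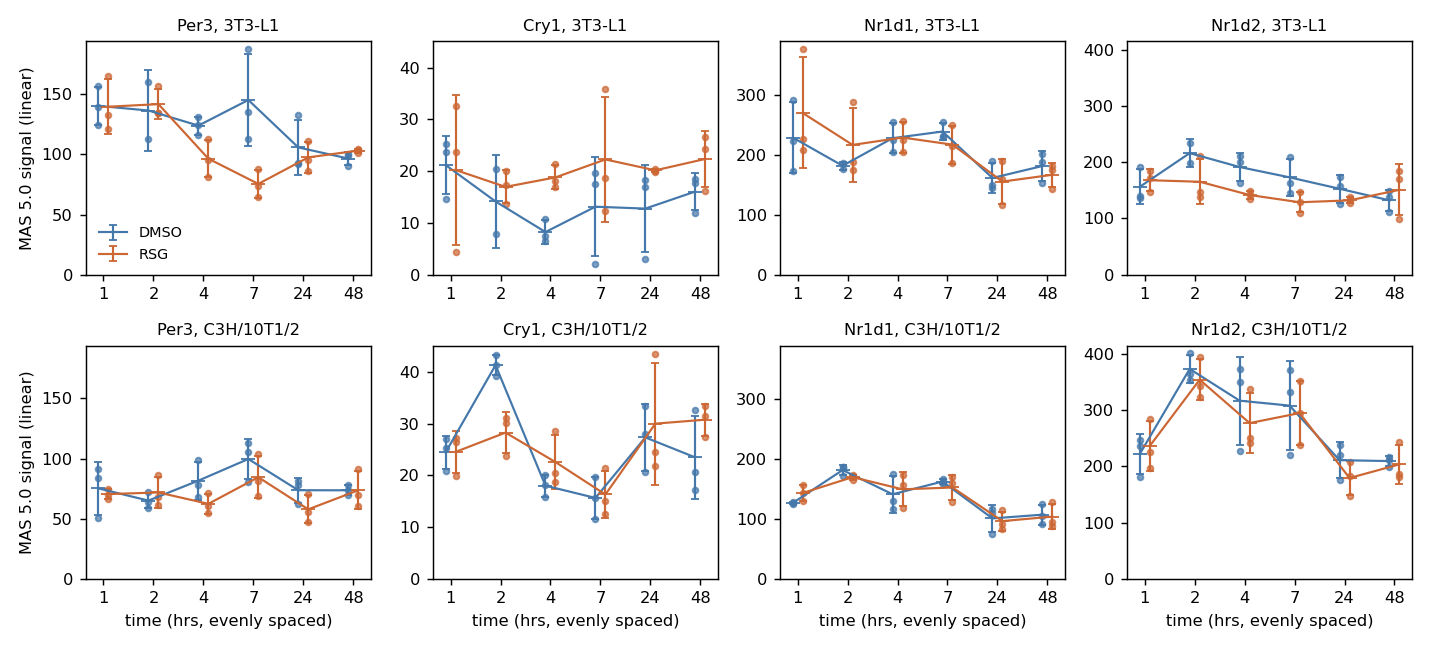
Signals (MAS 5.0, linear) of the leading probe sets of Per3, Cry1, Nr1d1 and Nr1d2 (columns) against time (hrs, evenly spaced) in 3T3-L1 (top) and C3H/10T1/2 (bottom), each gene on 1 scale. Points are arrays and lines join means with SD bars, blue for DMSO and orange for RSG. Per3 with RSG dips to 64.8 to 87.9 at 7 hrs in 3T3-L1, and Cry1 under DMSO in C3H/10T1/2 peaks at 39.3 to 43.2 at 2 hrs.

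The F-test over the 6 DMSO times called 3 of 16 clock probe sets in 3T3-L1 (Noct and both of Dbp), where 2.24% of all probe sets were called. It called 6 of 14 in C3H/10T1/2, those of Noct, Cry1, Dbp (both), Nr1d1 and Nr1d2, against 20.6% of all. With the replicate block the leading Clock probe set was called too (F = 3.99, adjusted p = 0.0272), its 24 hrs arrays reading 71.2 to 92.5 and its 4 hrs arrays 48.9 to 54.9. Cry1 under DMSO in C3H/10T1/2 was at 39.3, 41.4 and 43.2 at 2 hrs, above every other DMSO group, and at 11.5 to 19.7, under the presence level, at 7 hrs. Its rise from 1 to 2 hrs was not called. Over the 6 RSG times 4 of 16 were called in 3T3-L1 (Noct, Per3 and both of Dbp), against 16.6%. The replicate block added the leading probe sets of Per2 (adjusted p = 0.0376, against 0.219 without) and Nr1d1 (0.00778, against 0.0546) there. Over the RSG times 6 of 14 were called in C3H/10T1/2 (Noct, Arntl, Dbp (both), Nr1d1 and Nr1d2), against 12.2%.

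Arntl under RSG in C3H/10T1/2 read 103.7, 104.0 and 117.6 at 2 hrs, above the arrays of the other 5 times, and 39.9 to 55.4 at 7 hrs (F = 8.95, adjusted p = 7.49e-04). The single change from 1 to 2 hrs was not called. Between 24 and 48 hrs, which are 1 day apart, no clock probe set was called by limma in either treatment. The shares of all probe sets called there were 0.0333% with DMSO and 0.255% with RSG in 3T3-L1, while C3H/10T1/2 had 0.0248% with DMSO and 0.0062% with RSG. At an unadjusted p under 0.05 limma gave 1 clock probe set in each of these 4 comparisons.

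Whether the RSG effect itself changed with time was tested across the 6 times, on the arrays of the RSG against DMSO comparisons. In 3T3-L1 3 of 16 were called (Noct and both Dbp probe sets; 4.95% of all) and in C3H/10T1/2 2 of 14 (Noct and the leading Dbp probe set; 2.16%). With the replicate block Per3 was called too in 3T3-L1 (adjusted p = 0.0385, against 0.0723 without). The Noct effect in 3T3-L1 was larger than at 1 hrs by 1.07 ± 0.26 at 24 hrs and 1.21 ± 0.26 at 48 hrs. That F-test (adjusted p = 0.0235) was lost without RSG 1 hrs replicate 2 (0.0838), RSG 1 hrs replicate 3 (0.0701) or DMSO 1 hrs replicate 1 (0.144). The C3H/10T1/2 effect was larger than at 1 hrs by 1.25 ± 0.22 at 4 hrs and 1.18 ± 0.22 at 7 hrs.

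The cell types were compared in a joint fit. The RSG effect differed for Noct at 48 hrs, smaller in C3H/10T1/2 by -1.34 ± 0.25 on the log2 scale (adjusted p = 8.31e-04), a call that held whichever array was left out. At 24 hrs the same difference was -0.99 ± 0.25 with an adjusted p of 0.0580, or 0.0228 with the replicate block. For the leading Dbp probe set it was 1.35 ± 0.32 at 24 hrs (adjusted p = 0.0415), lost when any of 9 of the 12 arrays was left out, at adjusted p up to 0.253, while the second Dbp probe set gave 0.23 ± 0.23. At 24 and 48 hrs 1 of 16 clock probe sets each was called, against 0.257% and 0.848% of all. At 1, 2, 4 and 7 hrs limma called none, against 0% of all at 1, 2 and 4 hrs and 0.0164% at 7 hrs, and at an unadjusted p under 0.05 it gave 1, 0, 0 and 4. At 4 hrs the Noct effects differed by -0.11, with an interval of -0.60 to 0.38.

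The DMSO time courses differed between the cell types for 3 of 16 clock probe sets (Noct, F = 32.3, and both of Dbp), against 5.06% of all. From 1 to 4 hrs Noct under DMSO fell further in C3H/10T1/2 by -2.47 ± 0.25 on the log2 scale (adjusted p = 7.61e-10). Dbp rose by 1.47 ± 0.32 more in C3H/10T1/2 from 1 to 7 hrs (adjusted p = 0.00544). Averaged over the 6 DMSO times, 12 of 16 clock probe sets differed in level, against 77.5% of all probe sets, so the share was close to that of the whole array. Noct differed by 0.00 ± 0.07 and was not called, while Dbp (-1.26 ± 0.10), Per3 (-0.67 ± 0.08) and Per1 (-0.52) were lower in C3H/10T1/2, and Cry1 (0.97) and Nr1d2 (0.66) higher. The array medians were lower in C3H/10T1/2 too (38.2 to 46.9, against 50.2 to 64.2 in 3T3-L1). These level differences were not adjusted for that, and its part in them was not tested.

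The RSG calls at 24 and 48 hrs coincided with lower fibroblast markers, whose part in them was not tested. Of 12 probe sets for Pdgfrb, Pdgfra, Thy1, Dlk1, Col1a1, Col1a2 and Col3a1, those called lower with RSG numbered 5 (24 hrs) and 9 (48 hrs) in 3T3-L1. Of all probe sets 6.97% and 8.09% were called lower there. The C3H/10T1/2 counts were 6 (24 hrs) and 5 (48 hrs), against 4.07% and 2.62% of all. Their summed signal at 48 hrs was 20202 to 21231 with DMSO and 13115 to 15340 with RSG in 3T3-L1, and 11517 to 12446 and 7780 to 9238 in C3H/10T1/2. At 24 hrs it was 16051 to 19441 and 11827 to 14587 in 3T3-L1, and 12821 to 14181 and 9038 to 9519 in C3H/10T1/2. None of the 7 genes was at 0. At 1 to 7 hrs, which hold the Noct calls of 2 to 7 hrs and the Dbp calls of 4 and 7 hrs, limma called 0 of the 12. The share of all probe sets called lower was then also small, at most 0.821% for 3T3-L1, with C3H/10T1/2 reaching 1.2%. With so low a share, 0 of 12 is no result about the fibroblast markers at these times. At an unadjusted p under 0.05 limma gave 4 of the 12 at 7 hrs in 3T3-L1, and 0 in the other early comparisons. The sums at 7 hrs in 3T3-L1 were 14591 to 17954 with DMSO and 12597 to 16927 with RSG. Of the 9 adipocyte marker probe sets, 2 of Fabp4, a lipid carrier of fat cells, were higher with RSG at each of 2, 4, 7 and 24 hrs in 3T3-L1 and 1 at 4 and 7 hrs in C3H/10T1/2. These 2 had medians of 223.8 and 244.2 in 3T3-L1. The brighter Fabp4 probe sets, with medians of 5980.8 and 1316.4 there, were not called at any time in either cell type. Macrophage markers gave 0 calls of 5 tested in each cell type, with at most 1 at an unadjusted p under 0.05. Myocyte markers gave 0 calls of 3 tested in 3T3-L1 and of 1 in C3H/10T1/2. At an unadjusted p under 0.05 limma gave 2 of the 3 at 7 and at 48 hrs in 3T3-L1. Their median log2 differences were 1.00 and -0.11. With so few tested, 0 calls is no result about these markers. Of the chondrocyte and osteoblast markers 1 of 2 Sox9 probe sets was lower at 24 and 48 hrs in 3T3-L1, where the RSG arrays were under the presence level. It was called lower at 24 hrs in C3H/10T1/2 as well, but there the arrays of both groups were under the presence level (9.5 to 19.5 with DMSO and 1.2 to 1.8 with RSG), so the difference is between background values.

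Genes around the clock were counted from lists by role, as probe sets called of those tested, and are read against the shares of all probe sets called in either direction. From 2 to 48 hrs these were 0.172, 0.716, 2.04, 11.8 and 14.3% in 3T3-L1, while C3H/10T1/2 had 0.229, 0.763, 2.85, 7.72 and 5.41%. Of the other core clock and feedback genes, 1 of 10 was lower at 7 and at 24 hrs in 3T3-L1, 1 lower and 1 higher at 48 hrs, and 1 of 9 lower at 24 hrs in C3H/10T1/2. The counts at 24 and 48 hrs were close to those shares, so they are no result about the list. The lower one was Timeless, a replication fork protein named for its fly clock relative, at 65.9 to 84.4 with DMSO and 5.5 to 6.5 with RSG at 24 hrs in 3T3-L1, at least 3.75-fold lower since the RSG arrays were under the presence level. The higher one was Bhlhe40, a repressor at E-boxes, at 95.2 to 241.9 with DMSO and 264.6 to 398.2 with RSG at 48 hrs. Of the D-box factors other than Dbp, limma called none of 6 at any time in 3T3-L1, with at most 3 at an unadjusted p under 0.05. In C3H/10T1/2 1 of 5 was lower at each of 4, 7, 24 and 48 hrs: Nfil3, a repressor at D-boxes, by -0.66 and -0.57 at 4 and 7 hrs, and Tef, an activator like Dbp, by -0.47 and -0.50 at 24 and 48 hrs (log2).

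Of the relatives of Noct in mRNA tail removal, limma called none of 22 in 3T3-L1, with at most 1 at an unadjusted p under 0.05. In C3H/10T1/2 1 of 22 was higher at 7 hrs (Pde12, 0.57, log2), against 2.85% of all. At 24 hrs 1 of 22 was lower (Angel1), against 7.72% of all, at 41.5 to 64.4 with DMSO and 20.5 to 33.8 with RSG. These counts were near the shares of all probe sets, so they are no result about the list. Of the clock kinases and ubiquitin ligases, 1 of 15 was called higher at 48 hrs in 3T3-L1 (Csnk1d, 0.85), below the 14.3% of all. In C3H/10T1/2 limma called none of 15, with at most 2 at an unadjusted p under 0.05. Clock outputs were called only higher, at 4 to 48 hrs: 2, 1, 4 and 4 of 15 in 3T3-L1, and 2 and 3 of 13 at 7 and 24 hrs in C3H/10T1/2. These probe sets stand for 6 genes. The 2 at 4 hrs in 3T3-L1 were both of Klf9, and the 2 at 7 hrs in C3H/10T1/2 both of Lpin1. All probe sets called higher were 0.544, 1.22, 4.79 and 6.2% in 3T3-L1 at 4 to 48 hrs and 1.65 and 3.65% in C3H/10T1/2 at 7 and 24 hrs. The median log2 difference of the outputs at these times was 0.44, 0.27, 0.27 and 0.36 in 3T3-L1, against -0.02, -0.05, -0.01 and -0.03 over all probe sets, and 0.36 and 0.41 in C3H/10T1/2, against -0.07 at both times. The largest changes among them were those of Gys2, Lpin1 and Klf9. Gys2, the liver form of glycogen synthase, was at 2.0 to 6.3 with DMSO, under the presence level, and at 50.5 to 81.7 with RSG at 24 hrs in 3T3-L1, at least 3.16-fold higher. In C3H/10T1/2 at 24 hrs its groups overlapped around the presence level, at 2.1 to 22.6 with DMSO and 9.7 to 71.8 with RSG.

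The early response genes that serum and cAMP induce were counted too, and are read against the same shares of all probe sets. In 3T3-L1 1 of 9 was higher at 2 hrs, 2 at 4 hrs (Fos, 1.43, and Egr1, 1.17, on the log2 scale) and 1 at 7 hrs (Egr1), while at 24 hrs 1 was lower (Egr1) and at 48 hrs 2 were higher (Fos and Atf3). In C3H/10T1/2 they were called lower only: 2 at 7 hrs, 2 at 24 hrs and 1 at 48 hrs. Of 10 glucocorticoid response probe sets in 3T3-L1, 1 was called lower at each of 7, 24 and 48 hrs (Sgk1). Another 1 was called higher there at 24 and at 48 hrs (Dusp1). Of 9 in C3H/10T1/2, 1 was called higher at each of 7, 24 and 48 hrs (Dusp1). The counts of this list at 24 and 48 hrs were near the shares of all probe sets, so they are no result about the list.

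Probe sets with the course most like those of the changing genes were found by Pearson correlation of log2 group means over the 24 groups, after the mean of each cell type was taken off. The groups share arrays and treatments, so the values are descriptions. For Noct they were C9orf72 (r = 0.944), Cavin2 (0.939) and Pck1 (0.92) among 14588 probe sets. For Dbp the closest was Per3 (0.883), before Ccdc6 (0.853) and Rnf114 (0.845). For Per3 the 2 closest were the 2 Dbp probe sets (0.89 and 0.883), before Tbc1d22a (0.83). Noct itself ran against Dbp (-0.684), Nr1d2 (-0.678) and Per3 (-0.609).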

How the data were processed

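Affymetrix mouse genome arrays measured mRNA in 71 adipocyte samples. The authors made MAS 5.0 signal intensities with background correction and a common scaling target, and deposited them on a linear scale without logarithms. The version of MAS 5.0 is not given in the sources used here. Of 22690 probe sets 64 controls were left out, and the probe annotation gave 20380 of the other 22626 a single gene, 691 several and 1555 none. Here 132 zeros were set to 0.1, intensities were taken to log2, and a probe set was tested where the mean of any group reached the authors' presence level: 18028 in 3T3-L1, 16123 in C3H/10T1/2 and 18274 in the joint fit. Groups came from the sample titles. limma 3.58.1 in R 4.3.3 (lmFit, eBayes with a trend) fitted 1 mean per group within each cell type, with Benjamini-Hochberg adjustment over all probe sets tested and calls at 0.05. A result between cell types came from the joint fit. Time courses were tested with moderated F-tests over 5 changes from 1 hrs. No 2 arrays held the same values.

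Replicate numbers in the titles were set against the arrays: in C3H/10T1/2 same-numbered RSG and DMSO arrays had deviations from their group means that correlated above 0.1 in 18 of 18 pairs (0.132 to 0.307), and in 3T3-L1 in 14 of 17 (0.0187 to 0.261). The methods tie replicates to differentiation batches without saying that a number is a batch. Every pair passed in C3H/10T1/2, so the numbers were taken to pair the samples there, while pairing is not settled in 3T3-L1. The fits reported used no block in either cell type, so the SEs and p-values in C3H/10T1/2 leave the pairing out. Calls that the block changes are given for both. The genes and lists were chosen with earlier results of these data known. All of the 10 genes are named, with the leading probe set by mean signal. Of each other list up to 3 called genes with the largest changes are named. RefSeq (GRCm38.p6) gave positions and promoter stretches. The number of arrays limits the precision. The closing section gives the alternatives: a replicate block, no trend, signals floored at the presence level, no filter on low signals, quantile normalization, only the groups compared, the methods' test (ANOVA on log10 intensities at an unadjusted p under 0.05 and a 1.2-fold change), and each array left out.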

Additional observations from a re-analysis of the deposited data

Results flagged for a closer look

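The results here stand out because an effect or a time course differed between the cell types or between times by a test of the difference itself (limma, adjusted over all probe sets tested). The RSG effect on Noct at 48 hrs was smaller in C3H/10T1/2 than in 3T3-L1 by -1.34 on the log2 scale (adjusted p = 8.31e-04), with RSG above DMSO in all arrays of both. The RSG effect on the leading Dbp probe set at 24 hrs differed by 1.35 (adjusted p = 0.0415), with all RSG arrays below DMSO in 3T3-L1 and overlapping groups in C3H/10T1/2.

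The RSG effect changed across the 6 times for Noct in 3T3-L1 (F = 5.62) and C3H/10T1/2 (F = 11.9). It changed for the leading Dbp probe set in 3T3-L1 (F = 7.16) and C3H/10T1/2 (F = 7.08), and for the second Dbp probe set in 3T3-L1 (F = 8.33). The DMSO time course differed between the cell types for Noct (F = 32.3), the leading Dbp probe set (F = 11.6) and the second Dbp probe set (F = 9.95).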

How the results depend on the processing

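The called log2 RSG differences, within or between the cell types, and those of Noct at 1 hrs kept their direction under every alternative run. Differences not called were not followed, and F values have no direction. Counts of clock probe sets called with RSG against DMSO are given here from 1 to 48 hrs. As reported they were 0, 1, 3, 4, 3 and 1 (3T3-L1) and 0, 1, 3, 2, 1 and 1 (C3H/10T1/2). The methods' test without adjustment gave 1, 1, 7, 4, 2 and 1 (3T3-L1) and 0, 3, 5, 4, 1 and 1 (C3H/10T1/2), and after Benjamini-Hochberg adjustment 0, 0, 0, 0, 0 and 1, and 0 at every time in C3H/10T1/2. With only the 2 groups compared the counts were 0, 1, 2, 3, 2 and 1 (3T3-L1) and 0, 1, 2, 1, 1 and 0 (C3H/10T1/2), the calls lost being those of the second Dbp probe set at 4 and 24 hrs and Per3 at 7 hrs in 3T3-L1, and of the second Dbp probe set at 4 and 7 hrs and Noct at 48 hrs in C3H/10T1/2. At 7 hrs in C3H/10T1/2 the floor gave 1, no filter 1 and the replicate block 4. Between the cell types at 24 hrs, where 1 was called, the floor gave 2, quantile normalization 2, the replicate block 2, and no filter or no trend 0. Leaving out 1 array gave 0 to 0, 1 to 1, 2 to 3, 3 to 4, 2 to 3 and 1 to 1 in 3T3-L1, 0 to 0, 1 to 1, 2 to 3, 1 to 2, 1 to 1 and 0 to 1 in C3H/10T1/2, and between the cell types 0 to 2 at 24 hrs and 1 to 1 at 48 hrs. Over times it gave 2 to 3 (DMSO), 4 to 5 (RSG) and 2 to 4 (RSG effect) in 3T3-L1 and 6 to 7, 6 to 6 and 2 to 2 in C3H/10T1/2. The replicate block ended no call, and in 3T3-L1, where pairing by number is not settled, it added Per2 (adjusted p = 0.0376) and Nr1d1 (0.00778) over the RSG times and Per3 (0.0385) for the RSG effect across times. The causes were not tested. Signals near the presence level limit Per2 and Cry1.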
